A study of Mus musculus with 2 samples.

Results

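The 6 genes Atm, Aptx, Tdp1, Xrcc1, Afg3l2 and Spg7, whose loss or mutation causes inherited ataxia in humans through DNA repair or mitochondrial proteolysis, were followed in adult mouse Purkinje cells. Atm, Aptx, Tdp1 and Xrcc1 act on broken DNA, and Afg3l2 and Spg7 encode a protease of the mitochondrial inner membrane. The members were chosen by gene symbol, and all 6 were found among the 43346 mouse genes of the files. Purkinje cells are inhibitory neurons that carry the output of the cerebellar cortex. There was 1 group, adult male wild-type C57Bl6 (strain B6NCrl) at the age of 8 months, with 2 libraries, called pool 2 and pool 1 after their replicate numbers, each made from 50 cells. The labels link a laser capture protocol for both pools and a Smart-seq protocol for pool 2, and they attach the same donor identifier to both, so separate animals are not established and differences between pools may be technical. With 1 group no condition was compared and no p-value was computed. Levels are deposited TPM values, which are corrected for transcript length and scaled to a fixed total, unless stated otherwise.

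Neurons do not divide, and their DNA takes single-strand breaks from oxidation and from stalled topoisomerases, which are sealed by a complex built on the scaffold protein Xrcc1. Aptx (aprataxin) removes the adenylate that a failed ligation leaves on a DNA end, and Tdp1 (tyrosyl-DNA phosphodiesterase) removes the remnant of topoisomerase I from a DNA end. Atm is the kinase that signals double-strand breaks, and its loss in humans causes ataxia telangiectasia. Afg3l2 and Spg7 (paraplegin) are subunits of the m-AAA protease, which degrades damaged inner membrane proteins and matures others. Purkinje cells are among the neurons most affected in the human disorders of these genes.

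The libraries held 27907662 expected counts in pool 2 and 23830685 in pool 1. All 10 Purkinje cell markers were detected, meaning that each pool reached 1 TPM, with the highest, Pcp4, at 17167 TPM in pool 2 and 16756 in pool 1. Markers of other cells were present too, and none of them was at 0. The summed TPM in pool 2 and pool 1 was 4044 and 3682 for 8 of 8 detected Bergmann glia and astrocyte genes, 138 and 109 for granule cells (6 of 7 detected), and 213 and 218 for oligodendrocytes (6 of 6). It was 29.2 and 19.7 for microglia (4 of 7), 66.2 and 47.5 for molecular layer interneurons (5 of 5), 124 and 93.9 for endothelial cells and pericytes (5 of 5), and 2273 and 649 for blood (4 of 4). The highest genes of these lists were Apoe, Gabra6, Cnp, C1qb, Prkcd, Ly6c1 and Hba-a2. Single genes weighed heavily in such sums: Prkcd had 38.65 and 9.83 TPM in pools 2 and 1, and Apoe 2492 and 1825. Of genes with a mean of at least 1 TPM, 2 of 5 interneuron and 4 of 8 Bergmann glia and astrocyte genes were lower in pool 2. For these lists the sums do not give the direction of each gene. Lower too were 1 of 6 granule cell, 4 of 6 oligodendrocyte, 1 of 5 microglia and 1 of 5 endothelial and pericyte genes. Of all protein-coding genes with such a mean 59.3% were lower. Of the blood genes 0 of 4 were lower, and all 4 were higher in pool 2 by at least 1.5-fold, against 3.1% of protein-coding genes. The part of these cells in the values below was not tested, and fewer cells of a type and less RNA per cell cannot be told apart in pooled cells.

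Much of what the files assign to Atm, Tdp1 and Aptx is transcripts that do not encode the full protein, and these transcripts differ from the coding ones in short stretches. Those of Aptx and Atm are shown here because the levels of these genes turn on them. Positions are on GRCm38 and the letters are those of GENCODE M21 transcripts. In Aptx the exon at chr4:40695377-40695423, minus strand, starts 5 bases later in transcript Aptx-205 than in Aptx-201. The capitals mark the 5 bases that Aptx-205 lacks in the first line, and the stop codon that the shifted frame meets in the second.
Aptx-201 exon: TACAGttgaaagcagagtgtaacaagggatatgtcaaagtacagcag
Aptx-205 exon: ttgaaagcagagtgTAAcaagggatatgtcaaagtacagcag

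The coding frame of Aptx-201 is 335 codons long and that of Aptx-205 is annotated at 48 codons, and Aptx-205 is classed as a target of nonsense-mediated decay, the pathway that degrades messages with an early stop. In Atm, transcript Atm-204 runs through a splice donor into the intron and ends there. The line gives the last 20 coding bases of the exon and the intron bases that follow, chr9:53521847-53522067, minus strand, with the unused donor dinucleotide in capitals.
Atm-204: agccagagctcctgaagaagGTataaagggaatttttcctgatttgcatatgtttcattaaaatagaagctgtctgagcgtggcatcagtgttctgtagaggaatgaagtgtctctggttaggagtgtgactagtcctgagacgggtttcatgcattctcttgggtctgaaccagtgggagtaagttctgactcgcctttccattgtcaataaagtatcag

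The motif AATAAA, the canonical polyadenylation signal, lies 7 bases before the end of Atm-204. Searched on the transcript strand alone, it was present in the last 40 bases of 16.7% of the 21848 retained-intron transcripts of GENCODE M21, and it was not found in the last 40 bases of Tdp1-204. Tdp1-204 begins inside an intron of Tdp1, 45 bases before the exon.

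All 6 members were detected in both pools, as were 51.7% of the 21474 protein-coding genes. Spg7 was highest and Xrcc1 lowest, and the order of the 6 genes was the same in both pools. Their median level was 18.1 TPM, against a median of 11.4 TPM over the 11445 protein-coding genes with a mean of at least 1 TPM. Among those 11445 genes Spg7 lay at the percentile 70.3, Aptx at 66.2, Afg3l2 at 62.1, Tdp1 at 59.1, Atm at 37.4 and Xrcc1 at 26.6. Every member had whole-number counts in both pools, with no fractional share of a read.

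Among the repair genes, Aptx (chromosome 4, 40682382 to 40703194) had 24.3 TPM in pool 2 from 918 counts and 22.6 in pool 1 from 726 counts, a mean of 23.5 ± 1.24 (SD, n = 2). The exact 95% Poisson intervals, which cover counting error alone, were 22.8 to 26.0 TPM in pool 2 and 20.97 to 24.28 in pool 1, so they overlapped. Tdp1 (chromosome 12, 99884517 to 99955219) had 16.7 and 16.9 TPM in pools 2 and 1, from 527 and 420 counts, and its mean of 16.8 ± 0.148 had the smallest SD of the 6.

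Xrcc1, the scaffold (chromosome 7, 24546289 to 24573440), was the lowest member, with 4.12 TPM in pool 2 from 213 counts and 4.63 in pool 1 from 189 counts (4.38 ± 0.361). Its counting intervals, 3.59 to 4.71 and 3.99 to 5.34 TPM, overlapped. Of the enzymes that bind it, Aptx was higher and the ligase Lig3, at 3.81 TPM in pool 2 and 4.06 in pool 1, was at a similar level.

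Atm (chromosome 9, 53439149 to 53536740) had 4.44 TPM in pool 2 from 301 counts and 9.45 in pool 1 from 516 counts, a mean of 6.95 ± 3.54. Pool 2 was the deeper library and still held fewer reads of Atm. The counting intervals, 3.95 to 4.97 TPM in pool 2 and 8.65 to 10.3 in pool 1, did not overlap, and neither did the intervals the authors deposited with the TPM, 4.03 to 6.07 and 8.43 to 11.5.

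Of the protease genes, Spg7 (chromosome 8, 123062942 to 123097760) had 30.1 TPM in pool 2 and 26.2 in pool 1 (28.1 ± 2.75), from 1146 and 842 counts. Afg3l2 (chromosome 18, 67404764 to 67449172) had 16.8 TPM in pool 2 and 21.9 in pool 1 (19.4 ± 3.61), from 1264 and 1299 counts. The counting intervals did not overlap for either gene, at 28.4 to 31.9 and 24.46 to 28.03 TPM for Spg7 and 15.9 to 17.8 and 20.7 to 23.1 TPM for Afg3l2, and the 2 genes differed between the pools in opposite directions. The deposited intervals overlapped for Spg7, at 27.3 to 32.7 and 23.2 to 29.0 TPM, and did not for Afg3l2, at 15.6 to 17.4 and 20.2 to 22.5 TPM. Together they held 48.6% of the summed TPM of the 6 members in pool 2 and 47.3% in pool 1.

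**Figure D1:**
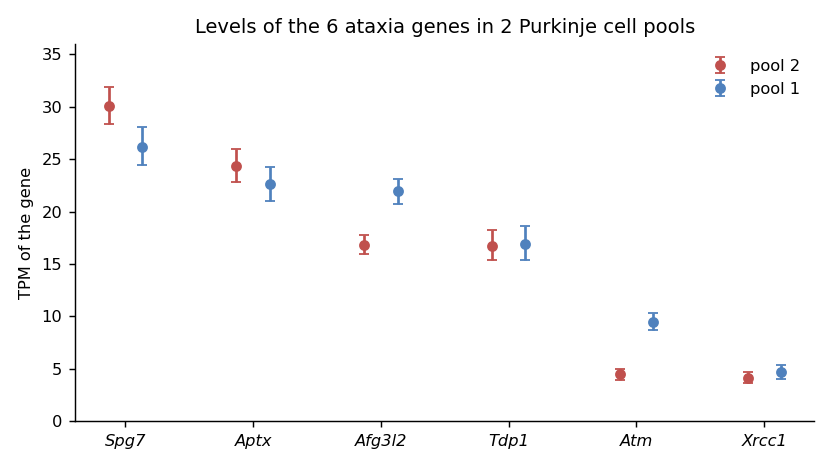
TPM of each gene (vertical axis) in pool 2 (red) and pool 1 (blue), ordered by the mean; bars are exact 95% Poisson intervals of the counts. Atm, at 4.44 TPM in pool 2 and 9.45 in pool 1, has the widest relative gap between its points, and those of Tdp1 nearly coincide.

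Not every step in this order exceeded the spread of the pools. Spg7 exceeded Aptx by 4.69 ± 1.51 TPM, and Tdp1 exceeded Atm by 9.89 ± 3.39 TPM, where the SD is that of the difference within each pool. The steps from Aptx to Afg3l2 (4.09 ± 4.85), from Afg3l2 to Tdp1 (2.54 ± 3.46) and from Atm to Xrcc1 (2.57 ± 3.18) were smaller than their SD. The members therefore fell into an upper set of Spg7, Aptx, Afg3l2 and Tdp1 and a lower set of Atm and Xrcc1, with every value of the upper set at 16.7 TPM or more and every value of the lower set at 9.45 or less.

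The gene levels hide a large difference in which transcripts carry them. Afg3l2 and Xrcc1 had 1 transcript each in the files, so their TPM was that of the full coding model. The other members had 5 to 12 transcripts in the files, and the leading transcript was not of a coding type in 3 of these 4 genes. The same was true of 15.1% of the 8398 protein-coding genes with 2 or more transcripts and a mean of at least 1 TPM. Ranked by counts, a non-coding type led in 1 member, Aptx, and in 8.53% of 8396 such genes.

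Aptx-205, the transcript with the early stop shown above, took 93.9% of the TPM of Aptx in pool 2 and 91.5% in pool 1. Its 22.9 and 20.7 TPM stood beside 1.40 and 1.92 TPM for its 3 coding transcripts together. The coding TPM was given to Aptx-201 in pool 2 and to Aptx-202 in pool 1, which differ in their first exon. The deposited intervals of Aptx-201, 0.203 to 1.45 TPM in pool 2 and 3.91e-06 to 0.580 in pool 1, overlapped, and those of Aptx-202, 5.68e-05 to 1.04 and 1.22 to 2.08, did not. Aptx-205 has no exonic base of its own: besides the 5 skipped bases it differs from Aptx-201 in its ends, with a deposited length of 1378 nt against 5250 nt for Aptx-201, whose last exon is longer. Whether the reads crossed the shifted splice site was not tested.

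Atm-204, which ends in the intron, took 82.3% of the TPM of Atm in pool 2 and 75.4% in pool 1, at 3.65 and 7.13 TPM. The coding transcript Atm-201 stood at 0.79 TPM in pool 2, against 1.77 TPM in pool 1. The deposited intervals for Atm-201, 0.656 to 0.883 TPM in pool 2 and 1.53 to 1.92 in pool 1, did not overlap, and those of Atm-204, 2.72 to 4.28 and 5.65 to 8.17, did not either. Both transcripts were thus lower in pool 2. By reads the order of the transcripts turned round: Atm-201, with a deposited length of 10006 nt against 1243 nt, held 65.1% of the reads of Atm in pool 2 and 67.5% in pool 1.

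Tdp1-204, which begins in an intron and covers the last exons, took 50.2% of the TPM of Tdp1 in pool 2 and 50.6% in pool 1. The coding transcripts Tdp1-201 and Tdp1-207, which have coding frames of the same length and differ at the 5′ end, had 7.74 TPM together in pool 2 and 7.60 in pool 1. Tdp1-207 was given 2.47 TPM in pool 2 and 0 in pool 1, but the deposited intervals of its TPM, 0.713 to 6.73 in pool 2 and 4.37e-05 to 5.77 in pool 1, overlapped. By counts the coding transcripts led, with 71.2% in pool 2 and 68.9% in pool 1.

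The TPM of Spg7 lay mostly in 2 transcripts of coding type that carry no APPRIS tag in GENCODE M21, the mark of a principal or alternative coding model. Spg7-201 took 44.0% in pool 2 and 46.6% in pool 1, and Spg7-206, which covers the last exons, took 47.3% and 30.7%. In GENCODE M21 Spg7-206 has no exonic base of its own, so its share rests on how shared reads were divided. Its deposited intervals, 10.5 to 16.2 TPM in pool 2 and 3.73 to 11.05 in pool 1, overlapped. Spg7-203, also without a base of its own, took 2.25% and 15.5%. Spg7-209, which carries the tag, had 0.21 and 0.54 TPM. The model of Spg7-201 differed between annotation releases, with 2683 nt in the files and 845 nt in GENCODE M21. Its exons and coding frame in the files were not analysed here.

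**Figure D2:**
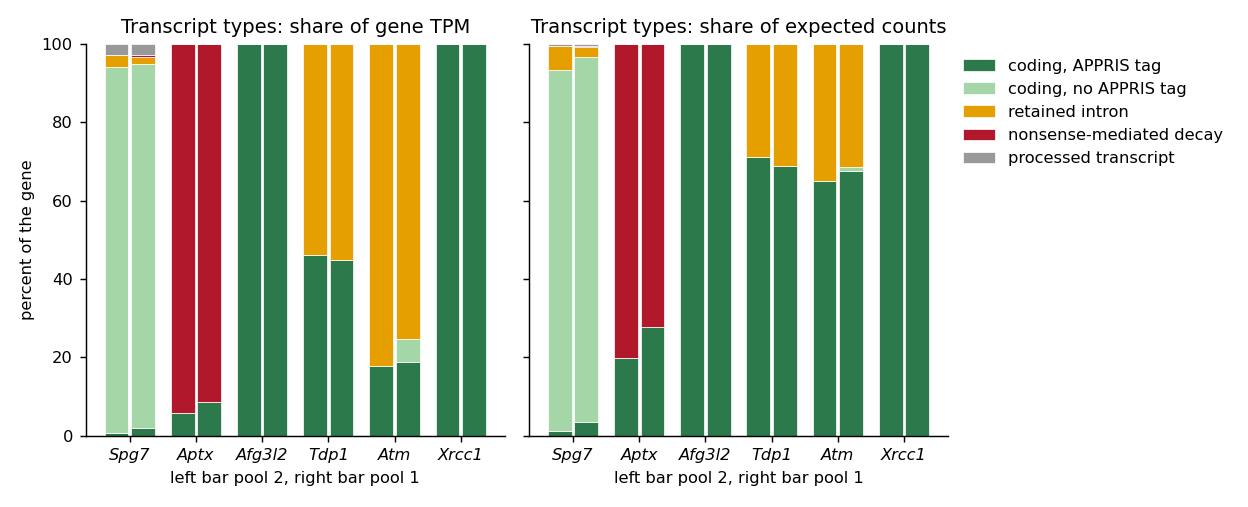
Percent of each gene (vertical axis) by annotated transcript type, as a share of TPM at left and of expected counts at right, with the left bar of each pair for pool 2 and the right bar for pool 1. Aptx is mostly of the nonsense-mediated decay type on both scales, while Atm and Tdp1 are mostly retained intron by TPM and mostly coding by counts.

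Summed over transcripts with an APPRIS tag, the members ranked in another order. Afg3l2 then led with 19.4 ± 3.61 TPM, followed by Tdp1 (7.67 ± 0.0990), Xrcc1 (4.38 ± 0.361), Aptx (1.66 ± 0.368), Atm (1.28 ± 0.693) and Spg7 (0.375 ± 0.233). The value and place of Spg7 leave out Spg7-201, at 13.2 TPM in pool 2 and 12.2 in pool 1, by the tag of a model of another length, so they hold for the M21 tags alone. These transcripts held less than 50% of the TPM in both pools in 4 of the 6 members, as they did in 22.1% of 11296 protein-coding genes, where their median share was 92.9%. By counts their share was over 50% for Atm and Tdp1, 19.8% and 27.8% for Aptx in pools 2 and 1, and 1.30% and 3.54% for Spg7, where the same untagged Spg7-201 held 75.1% and 74.4%. This summary was chosen after the transcript values had been seen.

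Between the pools, Atm was the only member that differed by at least 1.5-fold on the TPM + 1 scale, as 9.33% of 11445 protein-coding genes did in either direction. Its log2 ratio of pool 2 over pool 1 was -0.94, and a level lower in pool 2 by at least 1.5-fold was seen in 6.23% of those genes and in 8.07% of the 1971 genes with a mean of 5 to 10 TPM. The SD of the log2 ratio over those 1971 genes was 0.39. The ratio of Atm was -0.83 after adjustment for transcript length and expression, and -0.28 when scaled to the spike-ins, below 0 but short of 1.5-fold. From CPM (counts scaled to the total of mouse genes) the log2 ratio without a pseudocount was -1.01, with an exact 95% interval of -1.22 to -0.80 for counting error alone.

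The other log2 ratios were -0.36 for Afg3l2, -0.14 for Xrcc1, -0.02 for Tdp1, 0.10 for Aptx and 0.19 for Spg7. The SD over the 2857 protein-coding genes with a mean of 10 to 30 TPM was 0.34, and over the 553 with a mean of 4 to 5 TPM it was 0.37, so Afg3l2 lay just past 1 SD from 0 and the rest within it. After adjustment for length and expression the ratio of Afg3l2 was -0.18. Of the 6 members 4 were lower in pool 2, as were 59.3% of the protein-coding genes, and the median log2 ratio was -0.08 over the members and -0.08 over those genes. The spike-ins, synthetic RNAs added to each library, had a median log2 ratio of -0.66, and on their scale the median over all protein-coding genes was 0.58 and the ratios of Afg3l2, Xrcc1 and Tdp1 were positive.

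**Figure D3:**
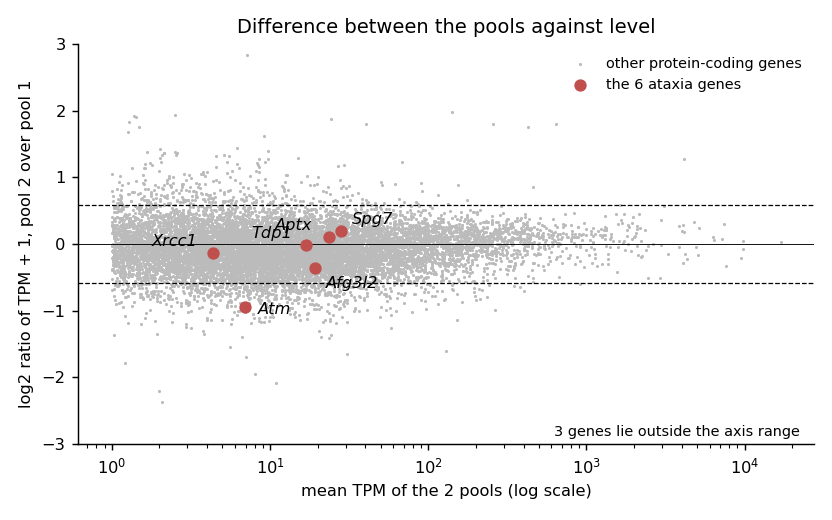
Log2 ratio of TPM + 1, pool 2 over pool 1 (vertical axis), against the mean TPM on a log axis for protein-coding genes with a mean of at least 1 TPM (grey) and the 6 members (red); dashed lines mark 1.5-fold. Atm lies at -0.94, below the lower line, and the other members lie between the lines.

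The starts of 3 members lie close to that of a gene read in the opposite direction. Atm and Npat, a coactivator of histone genes at the entry to S phase, start 306 bases apart, Tdp1 and Efcab11 start 77 bases apart, and Xrcc1 and Pinlyp 170 bases apart. A head-to-head protein-coding partner within 1000 bases was annotated for 6.78% of 21951 protein-coding genes. Npat had 4.15 TPM in pool 2 and 4.80 in pool 1, with a log2 ratio of -0.17 beside the -0.94 of Atm. Efcab11, with an EF-hand motif, had 0.24 and 0.08 TPM from 12 and 3 counts, far below Tdp1, and Pinlyp had 1 count in pool 2 and 0 in pool 1, where 0 counts allow up to 3. Of the 3 partners, Npat was the only one above 1 TPM. A long annotated gene, Gm20388, spans Spg7 on the same strand and had 1.62 and 2.72 TPM.

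The stretches between the starts of Atm and Npat and between the starts of Tdp1 and Efcab11 are given on the plus strand of GRCm38.p6 from RefSeq, at chr9:53536797-53537046, the 250 bases before the start of Npat, and chr12:99884440-99884516. They are shown because each lies between the starts of a pair, and the genes of the pair had closer levels in the first case than in the second. Capitals mark the motifs CCAAT and GGGCGG on either strand, which do not overlap here.
Atm-Npat: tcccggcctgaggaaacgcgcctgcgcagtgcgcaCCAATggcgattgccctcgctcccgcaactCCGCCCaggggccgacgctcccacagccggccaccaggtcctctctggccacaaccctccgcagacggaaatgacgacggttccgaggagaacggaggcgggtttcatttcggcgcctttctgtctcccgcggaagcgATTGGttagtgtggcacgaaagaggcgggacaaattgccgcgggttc
Tdp1-Efcab11: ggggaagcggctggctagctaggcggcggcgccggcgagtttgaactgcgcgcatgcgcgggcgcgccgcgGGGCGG

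The Atm and Npat stretch held 28 CpG dinucleotides, 2 CCAAT motifs and 1 GGGCGG motif at a GC content of 65.2%, and the Tdp1 and Efcab11 stretch 15 CpG and 1 GGGCGG motif in 77 bases. Over the 250 bases before the start of 27025 genes in the same table, the median was 6 CpG and a GC content of 52%, CCAAT was present in 34.5% and GGGCGG in 32.9%. The same window held 24 CpG for Atm, 15 for Aptx, 20 for Tdp1, 29 for Spg7 and 5 for Xrcc1. The RefSeq start of Xrcc1 lies downstream of the GENCODE one, so its window is not the stretch shared with Pinlyp. The RefSeq start of Spg7 lies downstream too, and its window, chr8:123065258-123065507, falls inside the gene span given above. That of Atm is also downstream, and its window, chr9:53536672-53536921, overlaps the Atm span, which ends at 53536740. Neither TATAAA, found in 13.0% of all windows, nor CACGTG, found in 6.05%, was present in any of these 5 windows on either strand. A match is a description of the letters, not a site. The start of Afg3l2 was not analysed here.

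Of 81 genes in 6 lists of pathways around the members, 76 were detected, against 51.7% of the 21474 protein-coding genes. Of the 76 with a mean of at least 1 TPM, 7 were lower in pool 2 by at least 1.5-fold, 9.21% against the 6.23% of all protein-coding genes, and 0 were higher by that much, against 3.1%. By CPM 5 of the 76 were lower and 2 higher by at least 1.5-fold, where 4.29% of all protein-coding genes were lower and 4.61% higher, so the one-sided count depends on the scale. Their median log2 ratio was -0.04.

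Of 15 single-strand break repair genes, 14 were detected, at a list median of 10.4 TPM in pool 2 and 10.6 in pool 1. The highest were Hpf1, which directs ADP-ribosylation to serine (106 ± 2.40), Polb, the gap-filling polymerase that Xrcc1 binds (104 ± 0.841), Apex1, the abasic site endonuclease (63.6 ± 2.998), and Parp1, the sensor of strand breaks (45.6 ± 4.15). Ung, a uracil glycosylase, was under the threshold with 0.39 TPM in pool 2 and 0.14 in pool 1. By TPM + 1 none of the 14 differed by 1.5-fold, against 9.33% of all protein-coding genes. By CPM the ligase Lig1 and the 8-oxoguanine glycosylase Ogg1 were higher in pool 2 by more than that, at log2 ratios of 0.73 and 0.70, beside 0.50 and 0.31 by TPM. Lig3, the DNA ligase held by Xrcc1, was the pathway gene closest to Xrcc1 over the 2 pools, at a distance of 0.18 in log2(TPM + 1), next to Nhej1 (0.18), a factor of end joining.

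Of 15 genes of double-strand break sensing and Atm signalling, 12 passed the threshold, and the list median was 6.99 TPM in pool 2 and 10.1 in pool 1. Rnf8, a ubiquitin ligase at breaks (55.5 ± 0.460), was highest, followed by Trp53bp1, Nbn and Atr. Chek2, the kinase that Atm activates (0.87 TPM in both pools), Mdc1 (0.56 and 1.00) and Brca1 (0.15 and 1.60) were under the threshold. The list median log2 ratio was -0.24, with 9 of 12 genes lower in pool 2 and 3 of them by at least 1.5-fold, against 59.3% and 6.23% of all protein-coding genes. By CPM none of these 3, Mre11a, Rad50 and Trp53bp1, was past 1.5-fold.

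Mre11a, Rad50 and Nbn form the complex that brings Atm to a break. Mre11a had 3.23 TPM in pool 2 and 10.1 in pool 1, Rad50 had 6.52 and 11.2, and Nbn had 12.3 and 17.4. All 3 were lower in pool 2, as was Atm, and Mre11a was the pathway gene closest to Atm over the pools, at a distance of 0.37, followed by Mcur1 (0.46). From CPM the log2 ratios were smaller, at -0.55 for Mre11a, -0.43 for Rad50 and -0.26 for Nbn, beside TPM ratios of -1.39, -0.70 and -0.46. The deposited length of Mre11a was 3423 bases in pool 2 and 1839 in pool 1. Trp53bp1, which binds chromatin at breaks, stood at 10.99 and 21.7 TPM with a log2 ratio of -0.92 by TPM and -0.40 by CPM. Its deposited length was 4447 bases in pool 2 and 3239 in pool 1.

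All 8 end joining genes were detected, led by Paxx (67.6 ± 10.1), Xrcc4 (22.6 ± 2.44), Xrcc6 (13.4 ± 0.537) and Xrcc5 (7.48 ± 0.127). The kinase Prkdc stood at 2.15 TPM in pool 2, against 4.18 TPM in pool 1. The ligase Lig4 stood at 2.42 TPM in pool 2, against 4.26 TPM in pool 1. Both were thus lower in pool 2 by at least 1.5-fold, 2 of 8 genes against 6.23% of all protein-coding genes. By CPM they were past it too, at log2 ratios of -0.62 for Prkdc and -0.65 for Lig4. After adjustment for length and expression both stood at -0.47, short of 1.5-fold. Xrcc4 and Tdp2, which removes topoisomerase II remnants, were the pathway genes closest to Afg3l2, at a distance of 0.33 and 0.32.

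All 16 genes of the m-AAA protease and of mitochondrial quality control were detected, at a list median of 29.8 TPM in pool 2 and 38.9 in pool 1. The highest were Phb, a prohibitin that forms the ring around the protease (165 ± 2.69), Stoml2 (158 ± 16.3), Mrpl32, a ribosomal protein matured by the m-AAA protease (154 ± 6.18), and Clpp, a matrix peptidase (130 ± 16.0). Afg3l1, another subunit of the protease in mice, had 6.57 TPM in pool 2 and 5.54 in pool 1, below Afg3l2 and Spg7 in both. Opa1, the fusion GTPase cleaved by the inner membrane proteases, had 18.4 and 36.6 TPM and a log2 ratio of -0.96. It was the sole one of the 16 genes past 1.5-fold in either direction, against 9.33% of all protein-coding genes.

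Of 7 genes of the mitochondrial calcium uniporter, 6 were detected, led by Smdt1, its essential regulator (446 ± 48.1), and Micu3 (188 ± 27.3), and Micu2 was at 9.81 ± 0.643 TPM. Smdt1 is degraded by the m-AAA protease when it is not assembled. Mcub, the inhibitory pore subunit, was under the threshold with 0.66 and 0.75 TPM in pools 2 and 1, from 20 and 18 counts.

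All 20 of the other recessive ataxia genes were detected, at a list median of 14.6 TPM in pool 2 and 18.5 in pool 1. Among the highest were Stub1, a ubiquitin ligase (194 ± 18.7), Syne1 (55.5 ± 5.56) and Sil1 (42.3 ± 6.53). Of this list 14 of 20 genes were lower in pool 2, 1 of them by at least 1.5-fold, close to the 59.3% and 6.23% of all protein-coding genes, and the median log2 ratio was -0.20. Tdp2, with 21.3 TPM in pool 2 and 21.9 in pool 1, was among the 2 pathway genes closest to Aptx, at a distance of 0.19. The closest to Tdp1 were Wwox and Parp2, and to Spg7 Tpp1 and Clpx.

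Of the 7 pathway genes lower in pool 2 by at least 1.5-fold on the TPM + 1 scale, 4 were also past it by CPM and 3 after adjustment for length and expression. Mre11a, Rad50, Trp53bp1, Prkdc, Lig4 and Opa1 were among the 7.

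**Figure D4:**
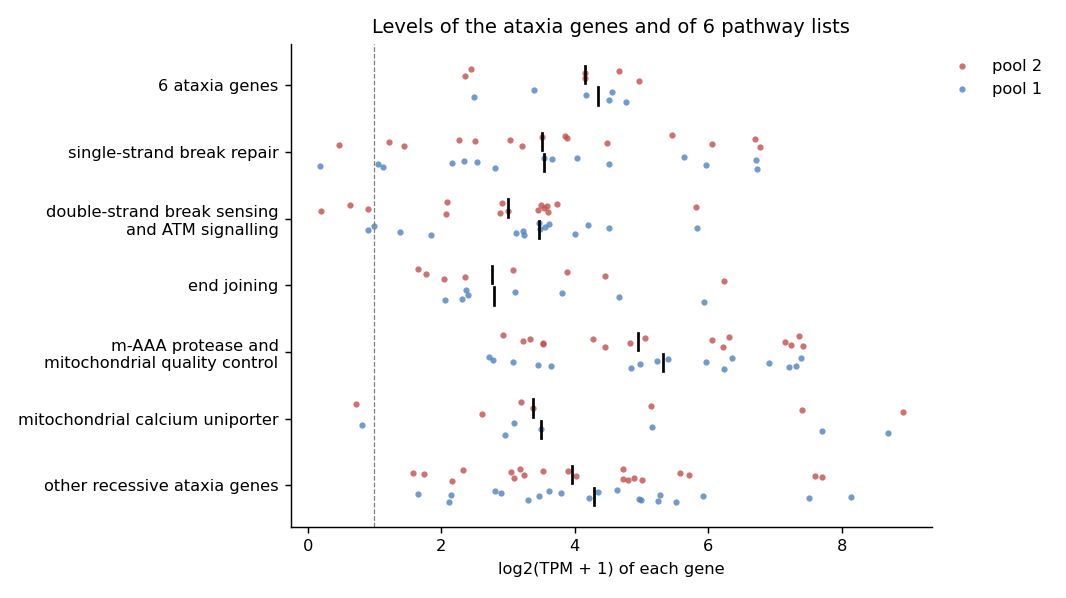
Log2(TPM + 1) of each gene (horizontal axis) in pool 2 (red, upper row) and pool 1 (blue, lower row) for the 6 members and 6 pathway lists; black bars are list medians and the dashed line marks a TPM of 1. The mitochondrial quality control list has the highest median in both pools and the end joining list the lowest.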

How the data were processed

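RNA of 2 pools of Purkinje cells was profiled by RNA-seq with ERCC spike-ins. Per the notes deposited with the files, genes and transcripts were quantified from transcriptome alignments to mm10 with GENCODE M4; aligner, quantification tool and strand setting are not given in the sources used here. Expected counts, as deposited by the authors, are unnormalized read estimates. The deposited TPM include the spike-ins in their total, and FPKM, deposited beside them, served as an alternative for detection. The deposited percent of a gene's TPM in each transcript was used for isoforms. The interval bounds deposited with the TPM, named score in the unit record, have no stated level.

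Symbols, gene and transcript types, APPRIS tags and coordinates came from GENCODE M21 on the same build, matched by identifier for 42462 of 43346 genes; 26248 entries with numeric identifiers were left out. Ratios are log2(TPM + 1) of pool 2 minus pool 1, which understates those of low genes. Alternatives were pseudocounts of 0.1 and 0.5, other thresholds, CPM, TMM of edgeR 4.0.16 and size factors of DESeq2 1.42.0 on rounded counts in R 4.3.3, spike-ins as the scale, lowess adjustment with a span of 30%, and each pool alone. Ratios and adjustment were tested on simulated data of 11445 genes, some of them raised or lowered by 1 on the log2 scale. Among genes at 5 TPM or more, the adjusted medians of raised and lowered genes lay 0.97 and -0.95 from that of unchanged genes. The unadjusted medians lay 0.94 and -0.93 from it, so the shifts differed little with the adjustment. The simulated pools had counting error and a built-in linear trend with length, and no other spread between pools, so the adjustment was not tested on such spread. The simulation used 1 effective length per gene for both pools, so ratios of genes whose length differed between pools, such as Mre11a, were not tested. Python 3.11.15, pandas 2.3.3, scipy 1.17.1 and statsmodels 0.14.6 were used.

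Members and lists were chosen with earlier results of these data known. Named genes are the members, the 4 highest of each pathway list, its genes under the threshold, the 2 pathway genes closest to each member, overlapping or head-to-head genes, and the highest of each marker list. Genes outside this rule (Rad50, Afg3l1, Prkdc, Lig4, Opa1, Lig1 and Ogg1) were named for their role or ratio after their values were seen. Some genes that the rule names, and 1 sequence, are not reported here. Transcript sequences are from GENCODE M21 and promoters from the RefSeq table of GRCm38.p6.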

Additional observations from a re-analysis of the deposited data

How the results depend on the processing

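No paired analysis was possible because there was 1 group. The median log2 ratio of the members, -0.08 by TPM, turned to 0.016 by CPM, 0.0010 with TMM and 0.58 scaled to the spike-ins, where the median of all protein-coding genes was 0.58 too, and was -0.32 over APPRIS transcripts alone, an alternative chosen after seeing the data. With the spike-ins 1 member was lower in pool 2, against 4.4% of all protein-coding genes. On that scale 3 members were past 1.5-fold, against 49.8% of all protein-coding genes. Tdp1 turned to 0.088 by CPM, 0.072 with TMM, 0.068 with DESeq2 size factors, 0.64 with the spike-ins and 0.023 over APPRIS transcripts. With the spike-ins Xrcc1 turned to 0.52 and Afg3l2 to 0.30, and over APPRIS transcripts Aptx turned to -0.28 and Spg7 to -0.35. The cause was not tested. Atm stayed below 0 under all 9 alternatives, from -1.07 with a pseudocount of 0.1 to -0.28 with the spike-ins.

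The protease genes held 48.0% of the members' TPM (47.3% to 48.6% in single pools) but 54.4% of their counts, which weight long transcripts more. A leading transcript of a non-coding type was found in 3 members, also in each pool alone, but in 1 by counts, against 8.53% of protein-coding genes. All 6 members were detected in each pool alone and 4 of them at 5 or 10 TPM. Of the pathway genes, 76 to 78 were detected in single pools and 61 at 5 TPM. The share of all protein-coding genes at 5 or 10 TPM is not given here, so these counts have no background beside them. By CPM, also added after seeing the data, 2 pathway genes were higher in pool 2 by 1.5-fold, against 0 by TPM, and 5 lower, against 7. Counts of 20 or fewer, as for Efcab11, Pinlyp and Mcub, give no ratio that could be read.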
